A study of Mus musculus with 2 samples.

Results

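The 10 genes described here encode transcription factors that set up or maintain photoreceptor identity: Crx, Otx2, Thrb, Rxrg, Neurod1, Rorb, Prdm1, Sall3, Mef2c and Mef2d. They were listed by name from what is known of photoreceptor development, and the rule uses no measured value. All 10 had a row among the 17774 genes deposited, and all 10 were among the 15947 genes kept because 3 or more cells held a count. Counts are molecules, since reads with the same unique molecular identifier were counted once.

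The cells were single GFP-positive cells sorted from retinas of Pde6c.GFP mice at postnatal day (PN) 24, on the C57BL/6 strain. These mice carry the Pde6ccpfl1 mutation, a cause of early cone loss, together with eGFP under the Chrnb4 promoter, which marks cones, and both groups carried both. One group was uninjected. The other received 10 μM GSK-J4, an inhibitor of the demethylases that remove H3K27me3, into the vitreous at PN 14, and was collected 10 days later. There was 1 plate of 96 wells and 1 library per group, so no difference between groups has a replicate check, no test was made, and treatment, injection and plate cannot be told apart. The cell names of the treated plate also hold the word "adult", whereas its label gives PN 24.

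After the filters, 82 of 85 uninjected and 64 of 66 treated cells were kept, with medians of 8118 and 2335.5 counts per cell (ranges 860 to 98250 and 420 to 15371). The libraries summed to 1113424 and 208578 counts, a ratio of 5.34. The kept cells of the 2 plates had 54 well positions in common. The label of cone photoreceptor was borne out in the uninjected library by level. The 11 cone markers were at 259 counts per 10000 there (95% exact Poisson interval 256 to 262), and all 82 cells held counts of them. In the treated library only 14 of 64 cells held any, at 21.3 per 10000 (19.4 to 23.4), and 303 of its 445 cone marker counts came from 1 cell. Opn1sw, Gngt2, Guca1a, Cngb3 and Pde6c, 5 of the 11, were at 0 there. The data of the treated library thus go against its cone label, and its cells are called treated cells below. Rod markers were at 34.4 per 10000 in uninjected and 1.29 in treated cells, and Müller glia markers at 10.8 and 2.78. Rod markers were also found in all 82 uninjected cells and Müller glia markers in 74. Bipolar markers were at 0.736 and 1.58, amacrine at 0.530 and 1.15, horizontal at 1.30 and 1.77, and ganglion cell markers at 0.638 and 0.767. Those of the pigment epithelium were at 1.37 and 1.05. The part of cell type, depth or plate in the differences below was not tested.

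Photoreceptors are born from precursors in which Otx2 switches on Crx, and both encode paired-type homeodomain proteins that bind the short DNA core TAATCC in front of opsin and phototransduction genes. Rorb and Prdm1 act early, in the choice between photoreceptor and other fates, and Neurod1, a basic helix-loop-helix factor, supports photoreceptor survival. The nuclear receptors encoded by Thrb and Rxrg bear on which opsin a cone makes, Sall3 is a zinc finger factor needed for short-wave opsin, and Mef2c and Mef2d are MADS-box factors, of which Mef2d works with Crx on photoreceptor genes.

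The DNA in front of the start sites is shown for Crx, Neurod1 and Thrb, the 3 factors with the largest difference in log-fold between the libraries described below. The sequences are from RefSeq (GRCm38.p6), 5′ to 3′ on the strand of the gene. Each is cut where the annotated first exon begins, and capitals mark TAATCC read on either strand (GGATTA on the other). Crx is at chr7:15879969-15880205 on the minus strand, Neurod1 at chr2:79456786-79456886 on the minus strand, and the 2 starts of Thrb at chr14:17660710-17660891 and chr14:17981394-17981528 on the plus strand.
Crx: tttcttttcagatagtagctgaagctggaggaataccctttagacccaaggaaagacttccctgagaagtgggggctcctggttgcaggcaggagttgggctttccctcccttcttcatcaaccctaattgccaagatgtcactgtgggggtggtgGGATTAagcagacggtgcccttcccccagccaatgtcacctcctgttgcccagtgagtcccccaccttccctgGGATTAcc
Neurod1: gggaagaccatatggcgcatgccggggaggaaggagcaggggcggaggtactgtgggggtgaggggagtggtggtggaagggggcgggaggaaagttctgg
Thrb, upstream start: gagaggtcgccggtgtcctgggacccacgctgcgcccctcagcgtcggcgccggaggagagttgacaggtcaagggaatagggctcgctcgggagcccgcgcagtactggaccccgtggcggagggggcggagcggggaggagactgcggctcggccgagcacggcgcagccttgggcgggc
Thrb, downstream start: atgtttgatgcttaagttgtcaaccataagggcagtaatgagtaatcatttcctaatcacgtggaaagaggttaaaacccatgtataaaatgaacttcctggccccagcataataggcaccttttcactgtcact

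The Crx window holds the homeodomain core 2 times, at positions -94 and -21 counted back from the RefSeq start site. The annotated first exon begins ahead of that start, after 237 bases of the window. Bases checked after that start were not found in an annotated Crx transcript, so the positions hold for the RefSeq start only. Promoter windows were available for 9 of the 10 genes, 17 windows in all, and Sall3 is named only. In the 250 bases before each start, TAATCC was found on either strand in 3 of the 17 windows, of Crx, Thrb and Otx2, against 6.25% of 32851 mouse promoters. Only the matches of Crx lie wholly before the first annotated exon. Those of Thrb and Otx2 do not, so the cut Thrb sequences above hold none. The nuclear receptor core AGGTCA was in 4 windows (14% of all promoters) and the E-box CAGATG, of the kind that Neurod1 binds, in 2 (14.4%). Several windows belong to the same gene and overlap, and a match says only that the letters are present.

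Per kb of exon, Neurod1 in uninjected cones was at 0.823 counts per 10000 per kb (95% Poisson interval 0.724 to 0.931) and Thrb at 0.622 (0.570 to 0.679), followed by Crx at 0.347 (0.288 to 0.414). Rxrg at 0.188 (0.138 to 0.249) and Rorb at 0.146 (0.125 to 0.169) had intervals that overlapped. The next 3 did as well, with Sall3 at 0.0876, Otx2 at 0.0851 and Mef2d at 0.0840, and Mef2c (0.0257) and Prdm1 (0.0145) were lowest. The counts are of reads from the 3′ or 5′ end and may not scale with exon length, and the order depends on that division. Undivided, Thrb at 4.61 counts per 10000 stood above Neurod1 at 2.25, Rorb at 1.62 and Crx at 1.10, and Sall3 at 0.656 above Rxrg at 0.431. These intervals cover counting error only, and reads were counted without a stated strand. In Gencode vM21, Otx2 shares 168 exon bases with Gm49154 and Otx2os1, Neurod1 355 with Cerkl and Gm26755, and Mef2d 531 with 1700113A16Rik. The counts were made on Gencode M17, and how reads in shared bases were counted is not stated. The levels of these 3 factors may therefore hold reads of those genes or lack reads of their own.

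Together the 10 factors gave 1336 counts in uninjected cones, 12 per 10000 (11.4 to 12.7), and 75 in treated cells, 3.60 per 10000 (2.83 to 4.51), a ratio of 3.34. A count of any of the 10 was present in 79 of 82 uninjected and 28 of 64 treated cells. The median cell held 3 different factors (highest 9) against 0 (highest 3), 48 against 4 cells held 3 or more, and 24 against 0 cells held 5 or more. Depth moved with this. When each cell was brought to 867 counts, leaving out 1 uninjected and 14 treated cells, the number of factors per cell came to 0.714 in uninjected and 0.241 in treated cells.

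**Figure D1:**
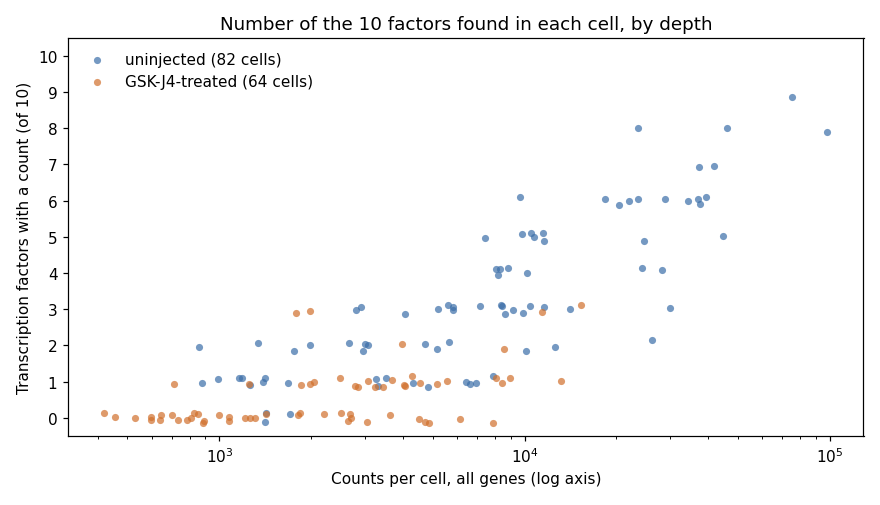
Number of the 10 transcription factors with at least 1 count in each cell (vertical axis, points shifted slightly up or down to part them) against the counts of the cell over all genes (horizontal log axis), for 82 uninjected and 64 treated cells. Uninjected cells reach 9 factors and treated cells 3, and cells of high depth hold more factors.

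Olfactory and vomeronasal receptor genes (396 with symbols starting Olfr or Vmn), which retinal cells should lack, served as a scale for stray counts. Their 95th percentile was 38.25 counts and 16.25 cells in the uninjected library, and 17 counts and 12.25 cells in the treated library, at the median depths given above. In uninjected cones Crx, Thrb, Neurod1, Rorb, Sall3, Otx2, Mef2c and Mef2d lay above both limits, the last 3 by the least, Rxrg above the first only, and Prdm1 below both. In treated cells Thrb (21 counts, 2 cells) and Rorb (19 counts, 10 cells) passed the limit on counts and not that on cells, and the other 8 passed neither. The treated values of these 8 are therefore read as no more than stray counts.

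Crx, the homeodomain factor on which most phototransduction genes depend, had 122 counts in 39 of 82 uninjected cones (lowest 0, median 0, highest 27) and 2 counts in 2 of 64 treated cells. At the uninjected rate 22.9 counts would have been found in the treated library. The ratio of the uninjected to the treated level was 11.4 (interval 3.10 to 95.4), against a treated value in the range of stray counts. Crx counts were spread: 23 of the 39 cones held 1 count and 6 held 5 or more. The cell with 27 had only 4046 counts in all, and a second held 18.

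Otx2, which acts before Crx, had 40 counts in 18 uninjected cones (median 0, highest 8) and 3 counts in 3 treated cells. The ratio was 2.50, with an interval from 0.795 to 12.6, so a difference was not detectable at this depth. The treated value is in the range of stray counts. Of the 3 treated cells with Otx2, none held a cone marker count.

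Thrb, the thyroid hormone receptor gene that includes the cone isoform needed for medium-wave opsin, was the most widely found factor, with 513 counts in 66 of 82 uninjected cones (lowest 0, median 1, highest 121). In treated cells it had 21 counts in 2 cells, 20 of them in 1 cell of 8090 counts. The level was 4.58-fold lower in treated cells (2.96 to 7.46), and only 1 count remained outside that cell. Counts of the isoforms were not separated in the deposited table.

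**Figure D2:**
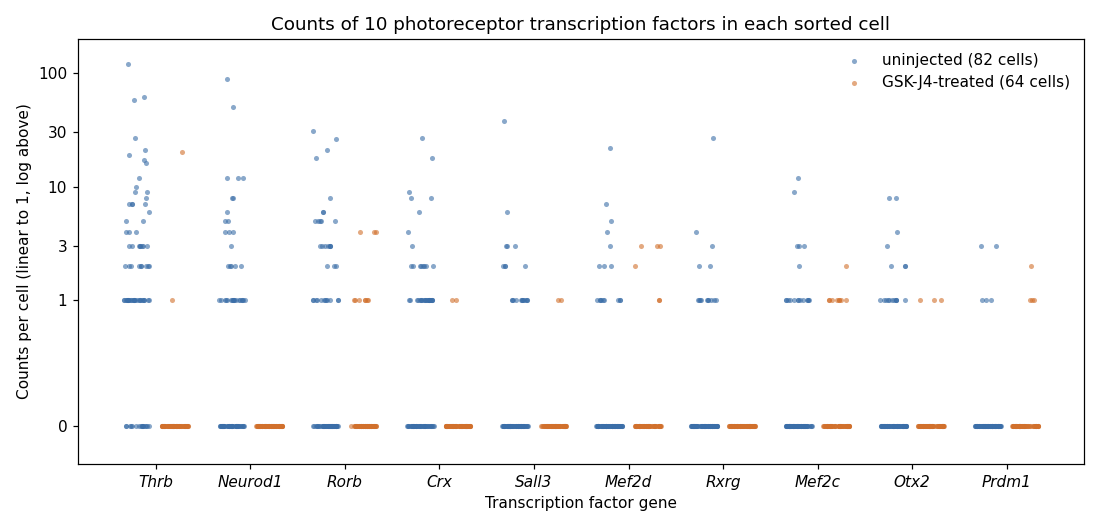
Counts of each transcription factor in every cell (vertical axis, linear to 1 and logarithmic above, points spread sideways) for 82 uninjected and 64 treated cells. Most cells hold 0 of most factors, the highest uninjected value is 121 for Thrb, and in treated cells 1 point, Thrb at 20, stands above all others.

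Rxrg, a retinoid X receptor that pairs with the thyroid hormone receptor, had 48 counts in 15 uninjected cones (median 0, highest 27) and was at 0 in all 64 treated cells, which allows up to 0.144 counts per 10000 (3 counts) and a share of up to 4.69% of cells with a count. The latter is no limit on the cells that express Rxrg. Against 3 counts the treated level was at least 3-fold lower, and the interval used for the other ratios begins at 2.35. The cone with 27 counts, 56.3% of the total, was also the deepest, at 98250 counts. The next cone held 4.

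Neurod1 had 250 counts in 37 uninjected cones (median 0, highest 89) and 0 in treated cells, where 46.8 would have been found at the uninjected rate. Its level was at least 15.6-fold lower in treated cells, again against 3 counts, and the interval used for the other ratios begins at 12.6. The 3 counts are a limit on counting, not on the spread between plates. The top cone held 35.6% of Neurod1 counts and the next 50 counts, and 10 cones held 5 or more.

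Rorb, an orphan nuclear receptor needed for rods and for short-wave opsin, had 180 counts in 34 uninjected cones (median 0, highest 31) and 19 counts in 10 treated cells (highest 4). The uninjected level was 1.77 times the treated level (1.10 to 3.02), while the intervals of the levels themselves overlapped. Rorb was the only one of the 6 factors called lower below that was found in more than 3 treated cells, and 2 of its 10 treated cells held a cone marker count.

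Prdm1, which holds early precursors to the photoreceptor fate, had 9 counts in 5 uninjected cones (highest 3) and 5 counts in 4 treated cells (highest 2). The treated level was 2.97 times the uninjected level with an interval of 0.781 to 9.85. Both values are in the range of stray counts.

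Sall3 had 73 counts in 21 uninjected cones (median 0, highest 38) and 2 counts in 2 treated cells. The ratio of the levels was 6.84 (1.83 to 57.5), also against a treated value in the range of stray counts. The top cone held 52.1% of the counts and the next held 6. The value thus rests largely on 1 cone of 9813 counts.

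Mef2c had 45 counts in 19 uninjected cones (highest 12) and 10 counts in 9 treated cells (highest 2), and Mef2d 56 counts in 17 cones (highest 22) and 13 counts in 6 treated cells (highest 3). The treated levels were 1.19 times (0.533 to 2.39) and 1.24 times (0.622 to 2.29) the uninjected levels. These intervals include 1, and no difference could be seen at this depth. Both treated values are in the range of stray counts, so the ratios do not show that either gene is expressed in treated cells.

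**Figure D3:**
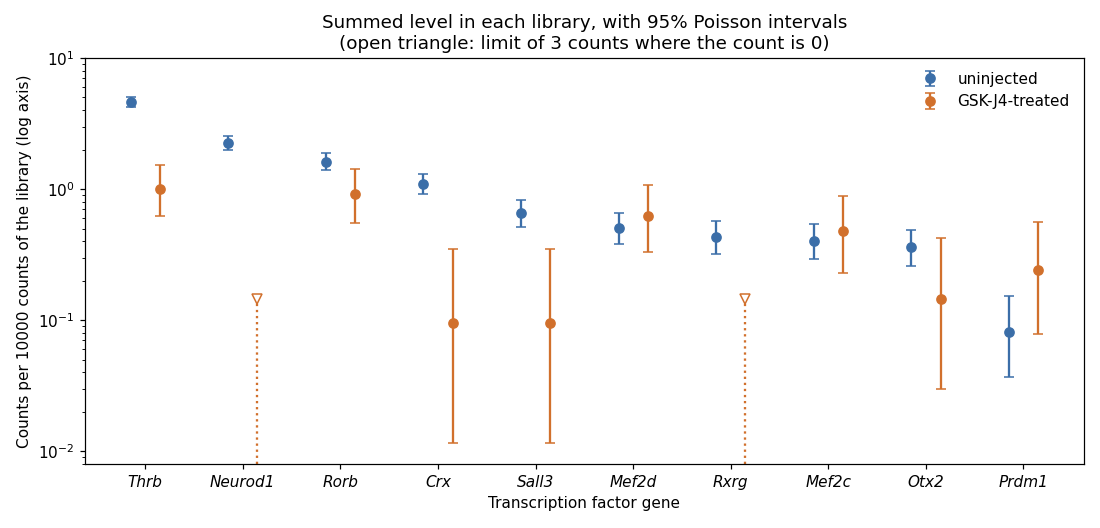
Summed counts per 10000 counts of the library (vertical log axis) for each factor in uninjected and treated cells, with 95% exact Poisson intervals, and an open triangle at 0.144 per 10000, the limit of 3 counts, where the count is 0. The intervals of the 2 libraries lie apart for Thrb, Neurod1, Crx, Sall3 and Rxrg, and overlap for Rorb, Mef2d, Mef2c, Otx2 and Prdm1. They cover counting error only and not the spread between cells or plates. The share of all genes whose intervals lie apart was not counted, so this is a description only.

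Differences were sized here by the natural log-fold of the mean scaled level, and genes past a limit of 0.3 in either direction were counted with no p, among genes found in 10% or more of the cells of 1 library or the other. Of the 10 factors, 9 could be so compared and 6 were lower past the limit in treated cells: Thrb by -1.33, Neurod1 by -1.01, Crx by -0.96, Sall3 by -0.42, Rorb by -0.38 and Rxrg by -0.34. None was higher, with Mef2c at 0.29, Mef2d at 0.01, Otx2 at -0.23 and Prdm1, found in too few cells, at 0.02. The median of the 9 was -0.38. Of all 7682 genes compared, 24% were lower and 20.4% higher, with a median of -0.005. With median-ratio size factors in place of library totals, 34% were lower and 8.14% higher, and 6 factors were still lower and 0 higher. The 7 factors Crx, Otx2, Thrb, Rxrg, Neurod1, Sall3 and Mef2d entered only through the uninjected library, and 5 of them were lower, where 37.6% of the 4545 genes that entered in that way were. The share of 6 in 9 is a description of these libraries and no support for a difference.

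The log-fold of Thrb, Neurod1 and Crx stayed past -0.3 under all 9 other settings tried, and that of Rxrg, Rorb and Sall3 did not. Rxrg came to -0.28 when cells needed 500 genes and to -0.10 on plate columns 1 to 6, and Rorb to -0.26 with 500 genes and -0.27 at 1 depth per cell. Sall3 came to -0.14 without its top cell and to 0.08 on plate columns 7 to 12. Otx2 passed the limit at -0.92 with a pseudocount of 0.1 and at -0.42 on columns 7 to 12, and came to 0.03 on columns 1 to 6.

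**Figure D4:**
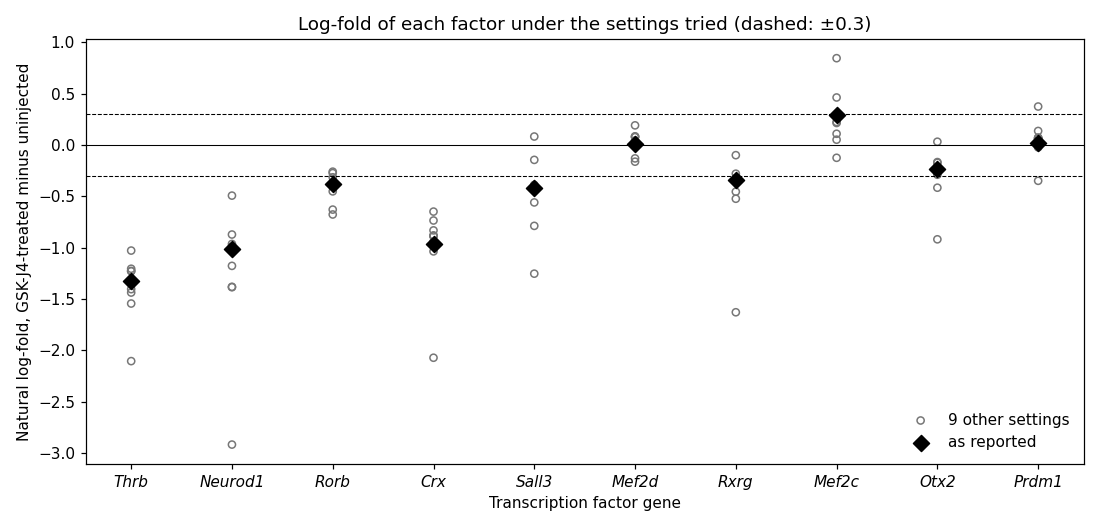
Natural log-fold, treated minus uninjected (vertical axis), of each factor as reported (diamonds) and under 9 other settings (open circles), with dashed lines at the limit of 0.3 in either direction. Thrb, Neurod1 and Crx lie below the lower line throughout, and Sall3, Otx2, Mef2d, Mef2c and Prdm1 have values on both sides of 0.

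Within the uninjected library the factors were also laid out unevenly on the plate. Columns 1 to 6 held 39 cones with 546722 counts and columns 7 to 12 held 43 with 566702, and the cone markers were at 248 and 269 per 10000. Neurod1 had 215 counts in 25 cones of columns 1 to 6 and 35 counts in 12 cones of columns 7 to 12, a level 6.37 times as high. Sall3 had 66 counts in 16 cones against 7 in 5, and Rorb 149 in 21 against 31 in 13, at levels 9.77 and 4.98 times as high. All 9 Prdm1 counts were in columns 1 to 6. Otx2 went the other way, with 3 counts in 3 cones of columns 1 to 6 and 37 in 15 of columns 7 to 12, 11.9 times as high in the latter.

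Rxrg followed Otx2, with 6 counts in 3 cones and 42 in 12, a level 6.75 times as high in columns 7 to 12. Thrb had 184 counts in 27 and 329 in 39 cones, 1.73 times as high there, and Crx was even, at 65 counts in 19 and 57 in 20 cones. Mef2c had 29 and 16 counts, and Mef2d 43 and 13. The 95% binomial intervals of the share of cells lay apart for Neurod1 (64.1% against 27.9%) and Sall3 (41.0% against 11.6%), higher in columns 1 to 6, and for Otx2 (7.69% against 34.9%), higher in columns 7 to 12. Of 6783 genes compared in this way, 6.47% were higher in columns 1 to 6 and 5.81% in columns 7 to 12. Without the top cell of each side the ratios for Neurod1, Sall3 and Rorb were 4.95, 6.79 and 5.43. The rod markers were at 39.8 and 29.3 per 10000 (35.4 and 26.4 without the top cells). The Müller glia markers were at 13.4 and 8.40, of which 1 cell held 493 of the 731 counts in columns 1 to 6, and at 4.46 and 5.87 without the top cells, which turns their order. The labels do not say whether the sides held cells of different animals or sorts, and the part of these in the result was not tested.

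**Figure D5:**
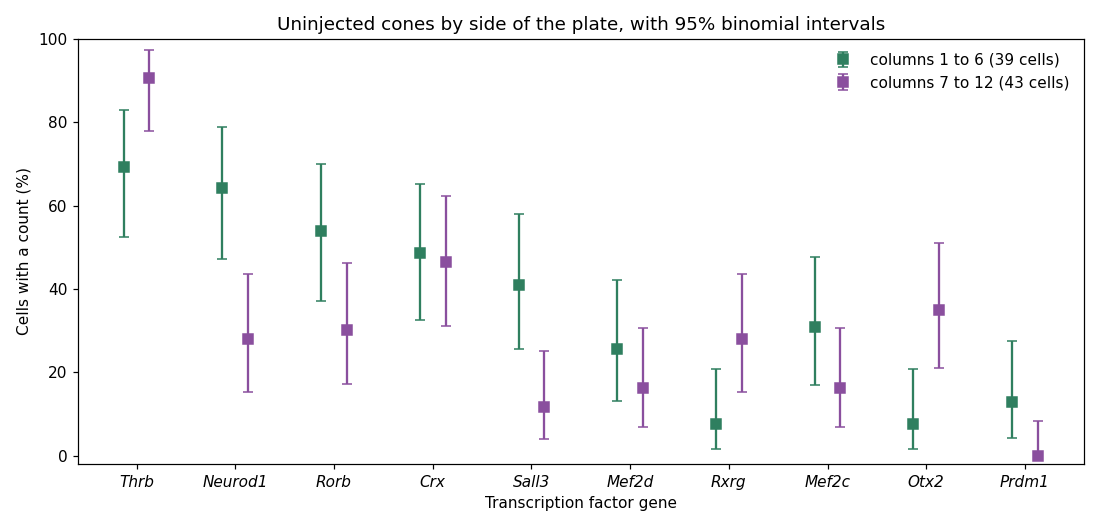
Share of uninjected cones with at least 1 count of each factor (vertical axis, %), for plate columns 1 to 6 (39 cells) and 7 to 12 (43 cells), with 95% exact binomial intervals. The intervals lie apart for Neurod1 and Sall3, higher in columns 1 to 6, and for Otx2, higher in columns 7 to 12.

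Across the 82 uninjected cones the correlations between factors were low, but most counts were 0, so these values cannot show whether the factors vary together. Over the 45 pairs, Pearson's r of the log level per 10000 counts went from -0.18 to 0.32 with a median of -0.005, and 1 pair was above 0.3. That pair was Neurod1 and Mef2d, found together in 13 cones where 7.67 would be if they were unrelated, and both had their highest count in the same cone of 28764 counts. Crx and Otx2 were together in 13 cones (8.56 if unrelated, r = -0.06) and Thrb and Rxrg in 13 (12.1, r = -0.14). The highest Spearman's rho of a pair, 0.32, was that of Mef2c and Mef2d, together in 9 cones (3.94 if unrelated). All cells share a plate, and deeper cells hold more factors: Spearman's rho of counts with depth was 0.66 for Thrb, 0.56 for Neurod1 and 0.05 for Prdm1.

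Thrb and Rxrg bear on opsin choice, so their level was set beside the opsins. Thrb had r = 0.25 with Opn1mw, the medium-wave opsin, and 0.17 with Opn1sw, the short-wave opsin, and Rxrg had 0.01 and 0.09. The correlation of Sall3 with Opn1sw was 0.12 and with Opn1mw -0.18. These are weak values in sparse counts over 82 cells of 1 library, given as a description.

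The genes most like the summed level of the 10 factors across these cones, among 2638 found in at least 25% of cells, were Aig1 (r = 0.54), Tpp1 (0.51), Spr (0.47), Rnaseh2c (0.43) and Lrp1b (0.41). The sum itself had r = 0.34 with the log of depth. In treated cells Aig1 had 20 counts, Tpp1 39, Spr 2, Rnaseh2c 4 and Lrp1b 23, against 145, 204, 113, 55 and 49 in uninjected cones. These are raw counts of libraries whose sizes differ 5.34-fold, so a lower count is not by itself a lower level. Tpp1 was found in 28 treated and 25 uninjected cells and Lrp1b in 16 and 22. For Aig1 these were 9 and 28, for Spr 2 and 22, and for Rnaseh2c 1 and 21.

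The paralogs and partners of the factors came next. Of 15 listed, 13 were analysed, 6 were compared, 1 was lower and 0 were higher, with a median log-fold of -0.07. Rora, the paralog of Rorb, was that 1, at -0.46, although its summed counts of 581 and 230 give 5.22 per 10000 in uninjected and 11.03 in treated cells, so its mean over cells and its sum differ in sign. Rxrb had 280 and 45 counts (-0.20), and Mef2a 114 and 18 (0.05). Among the 6 compared, Prdm16 with 10 and 3 counts (0.10) and Sall1 with 23 and 8 (0.09) had the highest log-folds, followed by Mef2a.

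Among other regulators of photoreceptors, 5 of the 10 compared were lower in treated cells and 1 was higher, with a median of -0.13. Ankrd33, a repressor of Crx activity, went from 253 counts in 34 cones to 1 count (-0.82), Nr1d1, a circadian nuclear receptor, from 156 to 4 (-0.64), and Rax, the eye-field homeobox factor, from 91 to 0 (-0.66). Pias3 and Six6 were the others, and the summed levels of Pias3 were even, at 0.476 and 0.479 per 10000. All 5 entered only through the uninjected library, and 37.6% of all genes that entered in that way were lower. Of the 253 Ankrd33 counts, 163 were in 1 cone, and the next cone held 14. The top cone held 32 of the 156 Nr1d1 counts. Of the 91 Rax counts, 58 were in 1 cell of 12594 counts, and the next cell held 4. The same cell held 493 counts of Müller glia markers. Samd7, of the repressive complex that silences genes in rods, had 4 counts in uninjected and 12 in treated cells (0.39). It entered only through the treated library, and 76% of the 899 genes that entered in that way were higher. Its 12 counts in 10 treated cells were below both limits for stray counts. Six3 (57 and 3 counts) and Casz1 (35 and 9) were at 0.12 and 0.07. The summed level of Six3 went the other way, at 0.512 per 10000 in uninjected and 0.144 in treated cells.

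Genes that supply or read thyroid hormone and retinoids are given by example. The receptor corepressor gene Ncor1 went from 163 counts in 30 cones to 0 (-0.52) and Crym, which binds thyroid hormone, from 67 to 2 (-0.45). Of the Ncor1 counts, 82 were in 1 cone, and the next cone held 12. Of the 67 Crym counts, 24 were in the cell of 12594 counts named above, and the next cell held 6. The coactivator Ncoa2 had 16 counts in uninjected and 11 in treated cells (0.39), below both limits for stray counts in each library. Ncoa1 had 86 and 23 counts (-0.005).

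The coactivators of Crx had 0 lower and 3 higher of 4 compared, and a median of 0.36. Those 3 entered through both libraries, and 36.5% of the 2238 genes that entered in that way were higher. The acetyltransferase gene Crebbp went from 38 counts to 37 (log-fold 0.44) and Ep300, its close relative, from 56 to 34 (0.39), in a treated library that is smaller by the ratio given above. The treated Crebbp counts were in 22 cells, of which 1 held 13 counts and the next 2. Those of Ep300 were in 16 cells, of which 1 held 16 counts and the next 2. Of the 56 uninjected Ep300 counts, 23 were in 1 cell. Kat2a had 161 and 34 counts (0.33), a level of 1.45 and 1.63 per 10000 with overlapping intervals, and Tada2b 51 and 3 (-0.02). Of the 34 treated Kat2a counts, 9 were in 1 cell of 806 counts. At 867 counts per cell, Kat2a was found in 10.2% of uninjected and 6.76% of treated cells. The 3 treated Tada2b counts were in 1 cell of 710 counts, and its summed levels were 0.458 and 0.144 per 10000.

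Photoreceptor genes known to be bound by Crx or Otx2 were lower in 23 of 29 compared and higher in 0, with a median of -1.22. All but Unc119 and Gucy2e entered only through the uninjected library. Of all genes that entered in that way, 37.6% were lower and 1.5% higher, so these counts are a description only. Together they were at 330 per 10000 in uninjected and 25.5 in treated cells, and those with the most counts were Gngt2 (7459 counts to 0), Opn1sw (6935 to 0) and Guca1a (5193 to 0), which include the cone markers above. Among the 29 compared, the highest log-folds were those of Gucy2e (73 and 26 counts, -0.09), Rp1 (45 and 7, -0.09) and Cnga3 (27 and 8, -0.11). The summed level of Gucy2e was 0.656 per 10000 in uninjected and 1.25 in treated cells, where 1 cell held 19 of its counts. General transcription factors, which every cell uses, were lower in 7 of 15 compared and higher in 0, with a median of -0.20. Of the 7, all but Sub1 also entered only through the uninjected library. Sub1 had 302 and 31 counts (-0.36), Gtf2h5 141 and 17 (-0.63) and Max 127 and 0 (-0.51). Of the 127 uninjected Max counts, 73 were in 1 cell, and the next cell held 18. The top uninjected cell held 59 of the Sub1 counts and, for Gtf2h5, 30. Gtf2a1 (34 and 14), Usf2 (16 and 7) and Nrf1 (80 and 16) were at 0.21, 0.13 and 0.12.

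In treated cells the factors could be set beside the cone markers. Of the 14 treated cells with a cone marker count, 8 held a count of any of the 10 factors, and of the 50 without, 20 did. The first 14 were deeper, with a median of 3839.5 counts against 1826.5. The 34 factor counts of the 14 include the 20 Thrb counts of 1 cell. Both Thrb cells held a cone marker count, as did 2 of 10 Rorb cells, 1 of 9 Mef2c cells and 1 of 6 Mef2d cells.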

How the data were processed

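Single GFP-positive cells were sorted into plates, and the authors aligned the reads with CLC Genomics Workbench. They removed duplicates by a molecular identifier of 8 bases and the mapping coordinates. Genes were counted with featureCounts on Gencode M17, and the raw counts per gene and cell were deposited, with 3′ and 5′ counts summed. The submitters' notes name the build as GRCh38, which is a human build. Coordinates here are from the GRCm38 annotation (Gencode vM21) and RefSeq (GRCm38.p6).

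A gene was kept when 3 cells or more held it, and a cell when it held 200 genes or more and no more than 5% mitochondrial counts, the filters of the study, without its batch correction. Cells were scaled to 10000 counts and averaged, and the log-fold is ln(mean + 1), treated minus uninjected. Intervals are 95% exact Poisson, for ratios conditional binomial, and for shares Clopper-Pearson, and cover counting error only. Those of counts and ratios treat the counts as independent of each other. The limit for a count of 0 is 3 counts per library. No doublet caller was run. Cells were brought to the 10th percentile of depth by expected value, with no random draw. The scripts, tested on simulated data, used scipy 1.17.1 and numpy 2.4.6 with pandas 2.3.3 under Python 3.11.15.

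All 10 factors were reported. Of each list of related genes, the 3 with the most uninjected counts and the 3 with the highest log-fold were named, and the 5 genes most like the sum of the factors by Pearson's r. For the thyroid hormone and retinoid genes, 1 result is not reported here, and so no counts over that list are given. The factors and lists were chosen with earlier results of these data known. Alternatives changed the filters, averaging, depth, scaling, pseudocount, top cell, plate side and the share of cells needed for a call.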

Additional observations from a re-analysis of the deposited data

How the results depend on the processing

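The 10 factors together had a log-fold of -1.25, which moved to -1.53 with median-ratio size factors, -1.52 on plate columns 1 to 6 and -0.97 on columns 7 to 12, and kept its direction under all settings tried. Median-ratio scaling moved the median of all genes to -0.14. Against it Mef2c and Mef2d, at -0.12 and -0.13, sat near the median. Factors higher past the limit numbered 0, but 1 (Mef2c, 0.85) with a pseudocount of 0.1 and 2 (Prdm1, 0.38, and Mef2c, 0.46) on columns 7 to 12. Factors lower past it numbered 4 (500 genes per cell) to 7 (pseudocount 0.1), against 6. Over all genes, 1842 lower and 1568 higher became 2611 and 625 with median-ratio size factors and 3143 and 2935 with a pseudocount of 0.1, and 648 were higher when 25% of cells were needed. Sall3 turned from -0.42 to 0.083 on columns 7 to 12. Why the sides differ was not tested. Of 90 values of single factors under other settings, 66 kept within their counting error, 23 moved beyond it and 1 changed sign after having passed the limit. With 1 library per group nothing here measures the spread between animals or plates. No paired analysis was possible because each group is 1 library. In the treated library a count of 0 allows 0.144 counts per 10000 by the limit of 3 counts, and 0.177 by the upper end of the exact Poisson interval.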

Other observations

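The 5 cells that the filters left out held few counts of the factors. The 3 uninjected cells had 18507 counts in all and 7 of the factors, from Crx, Thrb, Neurod1, Rorb, Sall3 and Mef2c, a level of 3.78 per 10000. The 2 treated cells had 2467 counts and 0 of the factors.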
